A study of Mus musculus with 25 samples.

Results

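The genes described here are 29 genes of cholesterol and fatty acid synthesis, chosen by symbol from a list of the pathway, out of 17894 genes with a row in at least 1 of 4 deposited tables of mouse pancreatic islet RNA sequencing. They were chosen with earlier results of these data known, which bears on every share set against all genes below. They were kept in a sterol branch of 20 genes and a fatty acid branch of 9 genes. All 29 were present once in each table and passed the filter on low values in every comparison. The study concerns BAF60C, a subunit of SWI/SNF chromatin remodelling complexes, in type 2 diabetes. Values exist for 19 libraries in 8 groups, each library prepared from islets pooled from at least 3 mice. The HFD table holds 2 BcBKO libraries and 2 flox/flox libraries, all from mice on a high-fat diet for 3 months, where BcBKO denotes ablation in beta cells and the series' text gives the Cre driver as Pdx1-cre. Pdx1 is active in the whole early pancreas, so such a driver need not be limited to beta cells. The PBS table holds 2 KO_REG3B-Fc, 2 KO_PBS and 2 CTR_PBS libraries. Both KO groups carry the knockout, and the labels neither spell out the gene that KO stands for nor how REG3B-Fc or PBS was given. The db table holds 2 db_REG3B and 2 db_GFP libraries, which share the background labelled db, and the WT table holds 5 WT libraries. Ages are not given in the labels. Nothing in them says whether the pools of a group came from separate animals, so p-values measure only the spread between these libraries.

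Cholesterol is built from acetyl-CoA through mevalonate, isoprenoid units, squalene and lanosterol. Fatty acids are built from the same acetyl-CoA, which ATP citrate lyase releases from citrate, by carboxylation, chain assembly, elongation and desaturation. Genes of both branches are targets of the SREBP transcription factors, encoded by Srebf2 and Srebf1, which INSIG proteins hold in the endoplasmic reticulum when sterols are plentiful. NF-Y, which binds CCAAT boxes, acts beside SREBP at many of these promoters. In beta cells glucose carbon leaves the mitochondria as citrate, which makes this pathway part of nutrient handling in the islet.

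RefSeq (GRCm38.p6) gave a promoter window of 250 bases before and 50 bases after an annotated start site for 23 of the 29 genes. Fdps, Fdft1, Sqle, Stard4, Scd1 and Scd2 had no window. Windows were searched on both strands for the CCAAT box (CCAAT), the core of a sterol regulatory element (TCACNCCAC), the E-box (CACGTG) and the GC box (GGGCGG). No match of one motif overlapped a match of another. A CCAAT box lay in 21 of the 23 genes (91.3%), against 41.1% of 27025 genes with a window and 42.5% of the 8816 of them that were tested in all comparisons. All 16 sterol genes with a window had one, as did 5 of 7 fatty acid genes, the exceptions being Acaca and Elovl6. The sterol element core matched in Hmgcs1 alone (4.35%, against 1.44% of all genes and 1.37% of tested genes). The E-box matched in Dhcr7, Hsd17b7, Insig1 and Sc5d (17.4%, against 8.09% of all genes and 12.0% of tested genes). The GC box lay in 19 genes (82.6%), against 38.2% of all genes and 70.9% of tested genes. The median GC content of the windows was 62.7% for these genes, 61.3% for tested genes and 52.7% for all windows. A match is a string of letters, not a shown binding site. The lack of a match to the 1 string searched does not show that a gene lacks a sterol regulatory element.

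The 250 bases before the start site are printed for 5 sterol genes and 3 fatty acid genes whose levels are described below. For Fasn this is an annotated start site inside the gene, whose locus on the minus strand reaches to 120825166. Capitals mark CCAAT boxes, read as CCAAT or ATTGG, and in Hmgcs1 also the sterol element core. They stand in all 5 sterol stretches and in Fasn, whereas Acly and Elovl6 have none before the start site and the only CCAAT box of Acly lies 38 to 42 bases after it.
Hmgcs1 (chr13:119690101-119690350, plus strand): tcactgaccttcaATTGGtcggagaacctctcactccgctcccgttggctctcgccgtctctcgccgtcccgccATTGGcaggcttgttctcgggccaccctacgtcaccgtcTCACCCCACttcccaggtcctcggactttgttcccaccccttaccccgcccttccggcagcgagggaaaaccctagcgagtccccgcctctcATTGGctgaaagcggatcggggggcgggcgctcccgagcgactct
Insig1 (chr5:28071162-28071411, plus strand): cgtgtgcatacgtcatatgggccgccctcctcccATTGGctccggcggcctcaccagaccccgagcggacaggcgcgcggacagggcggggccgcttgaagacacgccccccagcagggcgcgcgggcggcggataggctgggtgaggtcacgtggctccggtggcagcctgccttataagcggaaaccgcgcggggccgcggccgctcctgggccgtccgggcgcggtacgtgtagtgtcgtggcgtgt
Idi1 (chr13:8885356-8885605, plus strand): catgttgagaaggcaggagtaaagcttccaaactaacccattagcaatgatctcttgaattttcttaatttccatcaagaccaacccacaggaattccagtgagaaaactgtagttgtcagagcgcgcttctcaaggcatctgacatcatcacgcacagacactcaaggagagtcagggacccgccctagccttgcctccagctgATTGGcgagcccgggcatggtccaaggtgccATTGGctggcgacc
Mvd (chr8:122443423-122443672, minus strand): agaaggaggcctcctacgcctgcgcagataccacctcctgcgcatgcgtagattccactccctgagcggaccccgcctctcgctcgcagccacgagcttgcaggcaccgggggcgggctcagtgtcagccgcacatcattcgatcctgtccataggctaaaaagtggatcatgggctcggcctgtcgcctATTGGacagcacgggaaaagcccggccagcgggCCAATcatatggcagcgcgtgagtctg
Msmo1 (chr8:64733579-64733828, minus strand): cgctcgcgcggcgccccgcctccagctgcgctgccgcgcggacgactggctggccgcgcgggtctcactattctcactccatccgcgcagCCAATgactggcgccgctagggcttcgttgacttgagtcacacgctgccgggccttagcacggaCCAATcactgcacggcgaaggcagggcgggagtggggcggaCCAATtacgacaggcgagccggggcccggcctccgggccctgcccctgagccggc
Fasn (chr11:120824548-120824797, minus strand): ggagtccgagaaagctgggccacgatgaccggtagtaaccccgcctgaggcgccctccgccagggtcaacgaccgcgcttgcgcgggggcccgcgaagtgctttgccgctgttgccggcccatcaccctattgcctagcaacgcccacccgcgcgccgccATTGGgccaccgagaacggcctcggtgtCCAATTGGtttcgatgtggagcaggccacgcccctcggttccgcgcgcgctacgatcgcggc
Acly (chr11:100528001-100528250, minus strand): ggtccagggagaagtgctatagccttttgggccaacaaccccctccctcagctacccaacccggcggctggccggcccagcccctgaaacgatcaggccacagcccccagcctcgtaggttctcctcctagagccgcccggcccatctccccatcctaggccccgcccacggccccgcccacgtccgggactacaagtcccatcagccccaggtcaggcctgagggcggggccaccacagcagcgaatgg
Elovl6 (chr3:129532136-129532385, plus strand): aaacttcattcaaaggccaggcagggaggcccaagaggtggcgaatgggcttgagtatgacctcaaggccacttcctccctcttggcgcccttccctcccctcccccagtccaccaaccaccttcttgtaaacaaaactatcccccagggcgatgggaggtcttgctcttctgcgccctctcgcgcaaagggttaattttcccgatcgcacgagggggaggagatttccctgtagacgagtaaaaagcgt

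**Figure D1:**
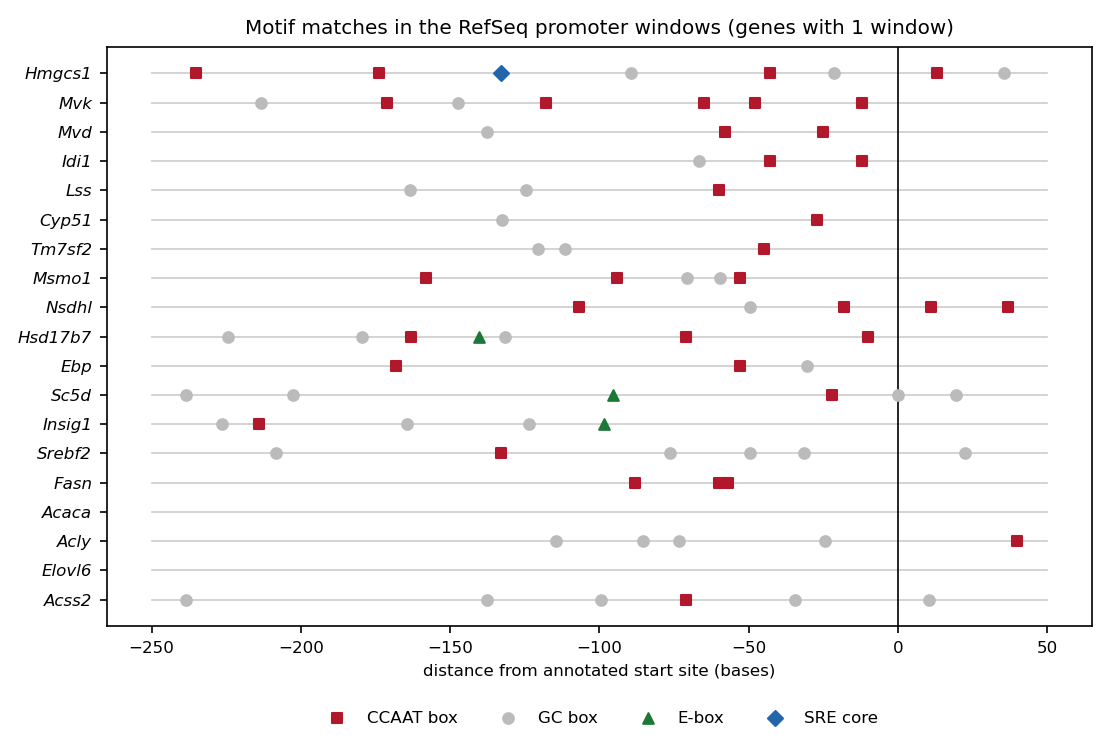
Positions of the 4 motifs relative to the annotated start site (x axis, bases) in the 19 genes with a single promoter window, 1 gene per row. Every sterol gene shown has at least 1 CCAAT box (red squares), while the rows of Acaca and Elovl6 hold no match of any of the 4 motifs.

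Libraries differed in composition. At least 1 FPKM (mapped fragments scaled to transcript length and to library size) was reached by 10436 to 12553 genes in each library, and sequencing depth is unknown. Digestive enzyme genes of acinar cells took 16.1 and 16.2% of summed FPKM in KO_REG3B-Fc, 37.8 and 38.9% in KO_PBS, and 18.6 and 18.4% in CTR_PBS. They took 3.65 and 3.59% in BcBKO HFD, 2.37 and 8.72% in flox/flox HFD and 6.48 to 49.6% in WT. In the db table they stayed at 0.131% or less, whereas genes of other islet hormone cells took 4.98 and 4.94% in db_REG3B and 10.3 and 10.3% in db_GFP. Beta cell markers took 28.6% or more of summed FPKM in every library. In WT replicates 2 and 3 they took 30.5 and 28.6%, less than the acinar genes at 47.4 and 49.6%, so these 2 libraries held more acinar than beta cell marker RNA. As deposited, the median gene moved by -0.44 on the log2 scale in KO_PBS against CTR_PBS and by 0.53 in KO_REG3B-Fc against KO_PBS. Changes are therefore given after each library was divided by the median, over genes, of its ratio to the geometric mean of the libraries of its table (median scaling), as log2(FPKM + 1), which understates changes of genes near 1 FPKM. A gene passed at a limma adjusted p under 0.05 over all genes tested. Beside these stand the same tests on FPKM as deposited and on FPKM rescaled without insulin and acinar genes, together called the 3 scales below. In such bulk samples a lower share of cells of a type and less RNA per cell cannot be told apart.

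Acly was the highest of the 9 fatty acid genes in all 19 libraries, and Hsd17b7, a late sterol reductase, the lowest of the 20 sterol genes in all 19. The highest sterol gene was Insig1 in 13 libraries, Sqle in the 4 db libraries, and Msmo1 in the other 2, flox/flox HFD replicate 1 and WT replicate 4. Scd1 was the lowest fatty acid gene in 11 libraries. Acly reached 782 and 829 FPKM in db_REG3B and 735 and 718 FPKM in db_GFP, against 117.6 to 283 FPKM in the libraries of the other tables. The tables were normalised separately, so this difference carries no test. The 20 sterol genes summed to 447.7 and 449.7 FPKM in db_REG3B, 413 and 401.8 FPKM in db_GFP, 525 and 417 FPKM in BcBKO HFD, and 404.5 and 374 FPKM in flox/flox HFD. In the PBS table that sum was 275 and 274 FPKM in KO_REG3B-Fc, 215 and 212 FPKM in KO_PBS, against 297 and 299 FPKM in CTR_PBS.

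**Figure D2:**
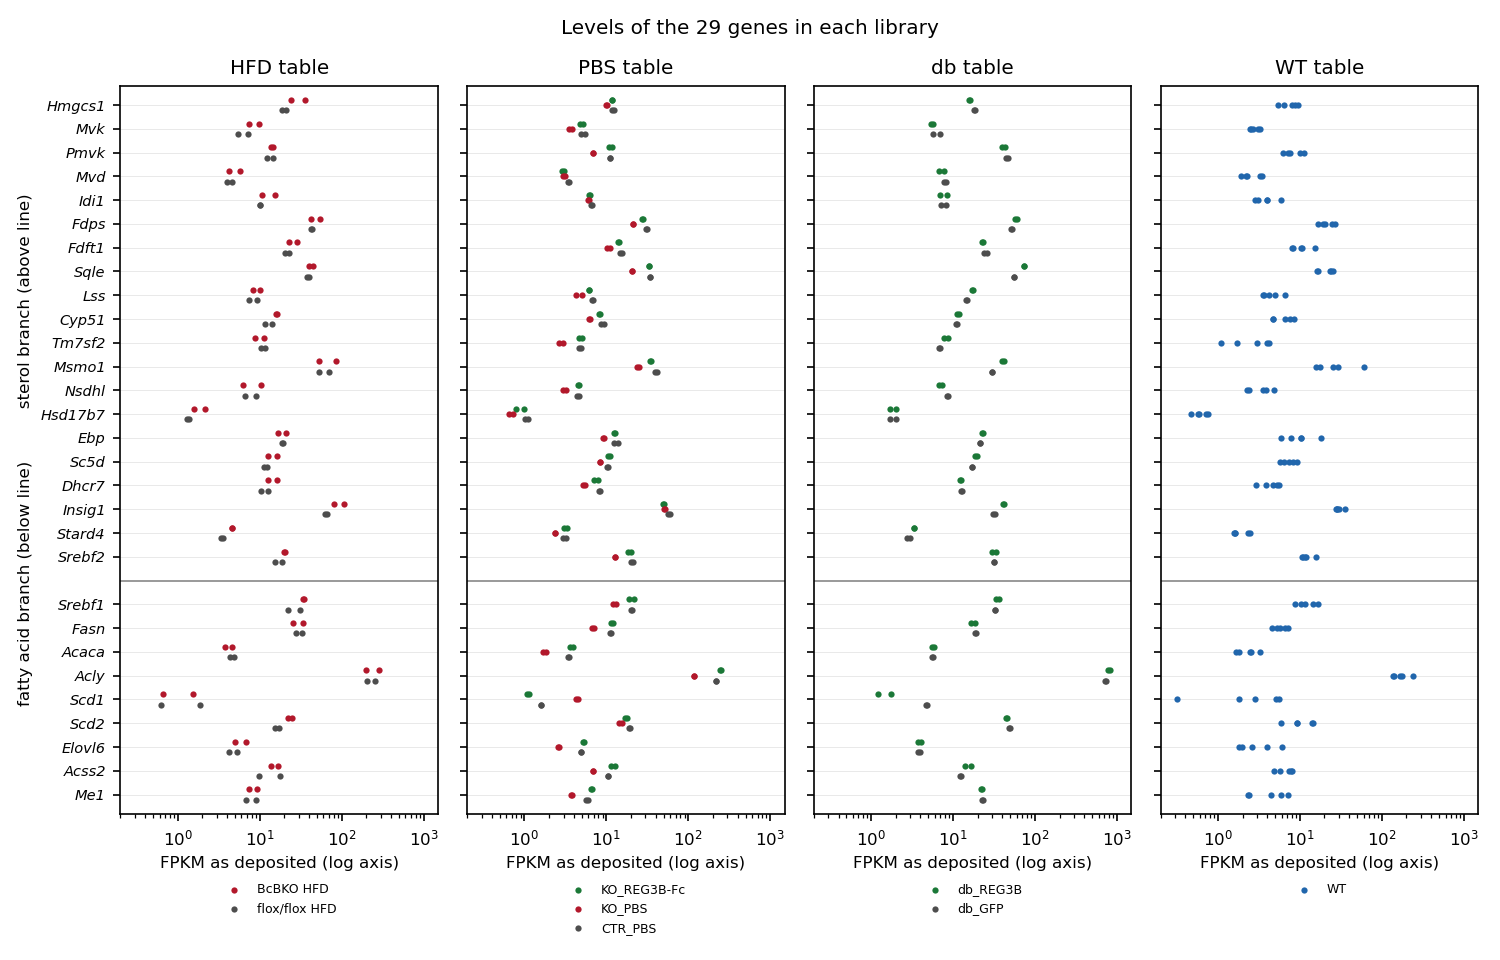
FPKM as deposited (x axis, log scale) of each of the 29 genes (rows) in every library, 1 point per library, with 1 panel per table and colours for groups. In the PBS panel the KO_PBS points lie left of both other groups for most genes, and for Scd1 they lie right of them. Over all genes tested 84.5% were lower in KO_PBS than in CTR_PBS without overlap.

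In KO_PBS islets, set against CTR_PBS islets, 4 genes that carry carbon from citrate into long-chain fatty acids were lower after median scaling. These were Acly, Acaca, Fasn and Elovl6, while the desaturase gene Scd1 was higher on all 3 scales. The sterol genes Sqle, Msmo1 and Tm7sf2 and the regulator gene Srebf2 were also lower after median scaling. The calls of Fasn, Msmo1, Tm7sf2 and Srebf2 were lost when certain single libraries were left out, as given below. After median scaling 7 of the 29 genes rose and 8 fell, where 24.6% of the 11789 genes tested passed as higher and 20.0% as lower. As deposited 1 rose and 26 fell (8.66 and 81.5% of all genes), and after rescaling without insulin and acinar genes 1 rose and 22 fell (11.4 and 69.6%). On all 3 scales 1 of 29 was higher and 8 were lower, against 8.66 and 20.0% of all genes. All 2357 genes that were lower after median scaling were also lower on the other scales, so these add no check on a lower call. The median log2 change was -0.01 for the sterol genes, -0.15 for the fatty acid genes and -0.0022 for all genes. The 14 genes that did not pass lay between -0.17 and 0.11. As deposited 1 gene was higher and 28 were lower with no overlap between groups, where 9.91 and 84.5% of all genes were. The count of lower genes was 5 without CTR_PBS replicate 1, 4 without CTR_PBS replicate 2, and 6 without either KO_PBS library.

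KO_REG3B-Fc islets, set against KO_PBS islets, had higher Acly, Acaca, Elovl6, Acss2 and Fasn after median scaling. Scd1 was lower on all 3 scales. The calls of Acss2 and Fasn were lost when certain single libraries were left out, as given below. No sterol gene passed in 1 direction on all 3 scales. After median scaling 9 sterol genes fell and none rose, but as deposited 6 of these 9 passed as higher, so the direction of the sterol genes depends on the scale. Over the 29 genes 5 rose and 11 fell (20.2 and 24.7% of all genes tested), while as deposited 24 rose and 1 fell (86.2 and 6.97%) and after rescaling 15 rose and 4 fell (71.4 and 10.5%). On all 3 scales 5 were higher and 1 was lower, against 20.2 and 6.97% of all genes. All 2376 genes that were higher after median scaling were also higher on the other scales, so these add no check on a higher call. A lower call met a stricter check, since 2917 genes were lower after median scaling and 822 on all 3 scales. The sterol and fatty acid branches therefore cannot be compared by this count. The medians were -0.15 for the sterol genes, 0.14 for the fatty acid genes and 0.0043 for all genes. The 13 genes that did not pass lay between -0.19 and 0.14. As deposited 26 were higher and 1 lower with no overlap between groups, where 88.3 and 7.77% of all genes were. The count of higher genes was 3 without either KO_PBS library, 3 without KO_REG3B-Fc replicate 1 and 4 without KO_REG3B-Fc replicate 2. Both comparisons use the KO_PBS libraries, so their changes are not independent and are only given side by side.

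Set against CTR_PBS directly, KO_REG3B-Fc islets had fewer genes past the threshold. After median scaling none of the 29 genes rose and 7 fell, where 5.47% of all genes passed as higher and 5.30% as lower. These were Fdps, Insig1, Msmo1, Mvd and Srebf2 of the sterol branch and Scd1 and Scd2 of the fatty acid branch. As deposited 2 rose, Acly and Acss2, and 4 fell (16.8 and 2.87% of all genes), and after rescaling none rose and 6 fell (6.12 and 4.51%). Fdps, Insig1, Msmo1 and Scd1 were lower on all 3 scales (2.84% of all genes). All 20 sterol genes had a negative log2 change after median scaling, with a median of -0.17, against -0.02 for the fatty acid genes and -0.0023 for all genes. As deposited 5 of the 20 were positive and the sterol median was -0.07, against 0.09 for all genes. All 7 markers of other islet hormone cells rose in this comparison after median scaling, with a median of 0.97, and all 18 tested acinar markers fell, with a median of -0.32, or 14 of them as deposited. Their part in the values of the 29 genes was not tested. As deposited 14 of the 29 genes were lower and 7 higher with no overlap between groups, where 9.80 and 54.4% of all genes were. The count of lower genes was 3 without CTR_PBS replicate 1, 1 without CTR_PBS replicate 2, 2 without KO_REG3B-Fc replicate 1 and 3 without KO_REG3B-Fc replicate 2.

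**Figure D3:**
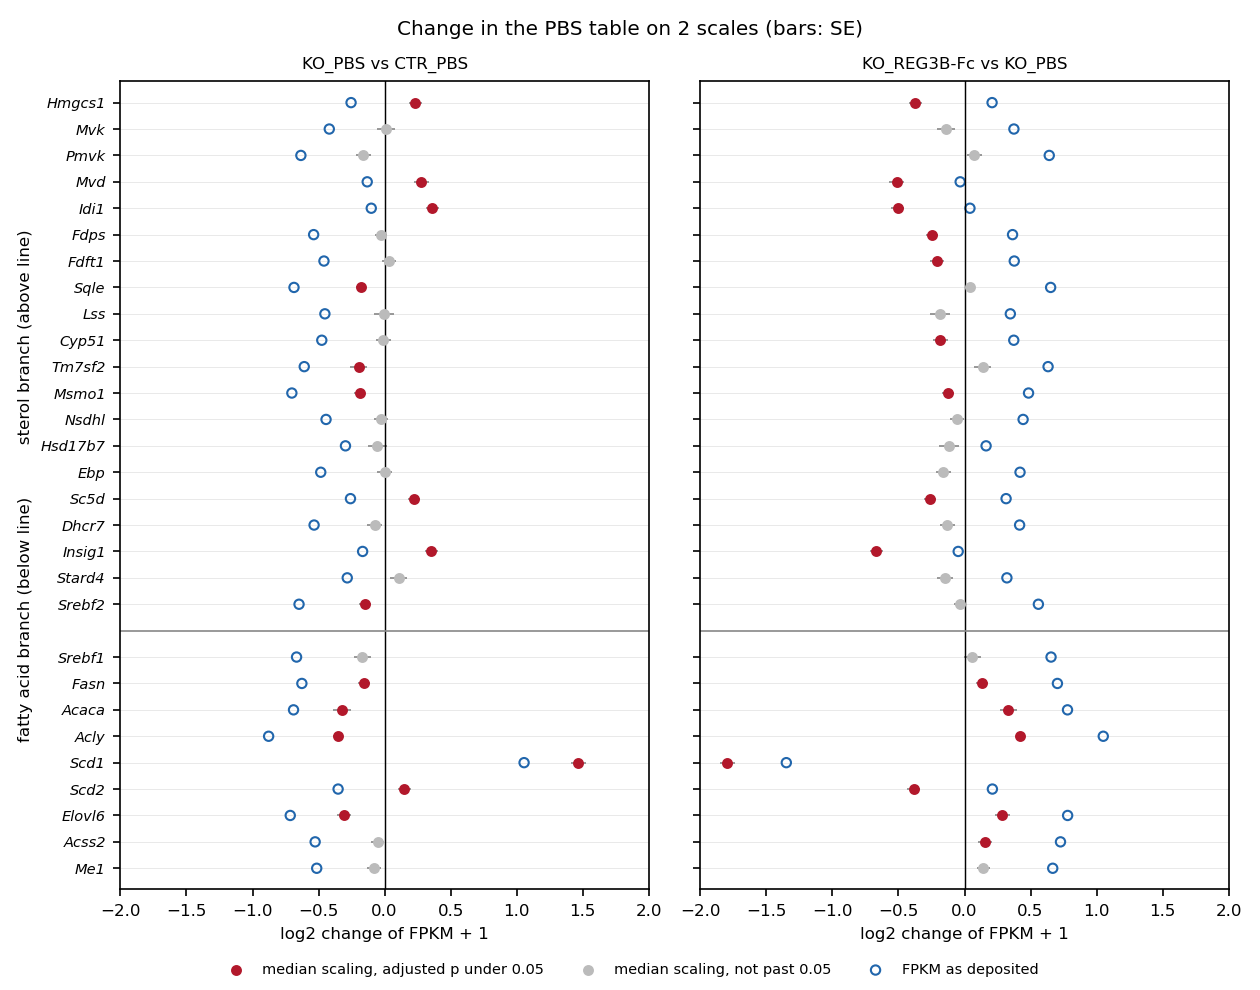
Log2 change of FPKM + 1 (x axis) for each of the 29 genes (rows) in KO_PBS against CTR_PBS and in KO_REG3B-Fc against KO_PBS, which share the KO_PBS libraries. Filled points are median-scaled changes with their SE, red where the limma adjusted p was under 0.05, and open circles are changes of FPKM as deposited. For all 29 genes the open circle lies left of the filled point in KO_PBS against CTR_PBS and right of it in KO_REG3B-Fc against KO_PBS.

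Among genes that supply acetyl-CoA, Acly encodes ATP citrate lyase (Entrez 104112, chromosome 11, 100476352 to 100528000, build GRCm38.p6). Acly measured 249.8 and 241 FPKM in KO_REG3B-Fc, 118 and 118 FPKM in KO_PBS, against 217 and 219 FPKM in CTR_PBS. It was lowest in both KO_PBS libraries and no group overlapped another. As deposited 84.5% of all genes were lower in KO_PBS than in CTR_PBS without overlap. A lowest place in KO_PBS, here and below, is thus shared with most genes. After median scaling Acly changed by -0.35 (SE 0.03, limma adjusted p = 7.98e-05) in KO_PBS against CTR_PBS and by 0.42 (SE 0.03, limma adjusted p = 2.94e-05) in KO_REG3B-Fc against KO_PBS. As deposited these were -0.88 and 1.05, the second a 2.07-fold increase. Against CTR_PBS directly, Acly in KO_REG3B-Fc differed by 0.07 (SE 0.03, limma adjusted p = 0.257), which did not pass, while it did as deposited (0.17, limma adjusted p = 0.0137). Acss2, which makes acetyl-CoA from acetate, measured 12.8 and 11.5 FPKM in KO_REG3B-Fc and 6.93 and 6.92 FPKM in KO_PBS, a log2 change of 0.16 (SE 0.05, limma adjusted p = 0.0380). That call was lost without KO_PBS replicate 1 (limma adjusted p = 0.124), KO_PBS replicate 2 (0.0839) or KO_REG3B-Fc replicate 1 (0.209). Me1, the malic enzyme that makes NADPH, passed in none of the 3 comparisons after median scaling, with log2 changes of -0.08 in KO_PBS against CTR_PBS and 0.14 in KO_REG3B-Fc against KO_PBS. As deposited these were -0.51 (limma adjusted p = 2.12e-05) and 0.67 (limma adjusted p = 3.11e-06), and after rescaling -0.36 (limma adjusted p = 0.000309) and 0.44 (limma adjusted p = 0.000102).

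Among the chain-building genes, Acaca encodes acetyl-CoA carboxylase (Entrez 107476, chromosome 11, 84129635 to 84401651). Acaca measured 3.58 and 3.90 FPKM in KO_REG3B-Fc, 1.70 and 1.82 FPKM in KO_PBS, against 3.48 and 3.42 FPKM in CTR_PBS, with both KO_PBS libraries lowest and no overlap. Its log2 change was -0.32 (SE 0.07, limma adjusted p = 0.00454) in KO_PBS against CTR_PBS and 0.33 (SE 0.07, limma adjusted p = 0.00395) in KO_REG3B-Fc against KO_PBS, or -0.69 and 0.78 as deposited. Elovl6, which extends palmitate (Entrez 170439, chromosome 3, 129532386 to 129638495), measured 5.30 and 5.12 FPKM in KO_REG3B-Fc, 2.55 and 2.68 FPKM in KO_PBS, against 4.95 and 4.91 FPKM in CTR_PBS. Again both KO_PBS libraries were lowest and the groups did not overlap. The share of all genes lower in KO_PBS than in CTR_PBS without overlap was 84.5%. Elovl6 changed by -0.31 (SE 0.05, limma adjusted p = 0.00219) in KO_PBS against CTR_PBS and by 0.29 (SE 0.05, limma adjusted p = 0.00313) in KO_REG3B-Fc against KO_PBS, or by -0.71 and 0.78 as deposited. Fasn, the fatty acid synthase (Entrez 14104, chromosome 11, 120805958 to 120825166), measured 12.1 and 11.5 FPKM in KO_REG3B-Fc, 7.00 and 6.75 FPKM in KO_PBS, against 11.3 and 11.0 FPKM in CTR_PBS. Its smaller log2 changes of -0.15 (SE 0.04, limma adjusted p = 0.0237) and 0.13 (SE 0.04, limma adjusted p = 0.0386) were lost whichever library was left out. The limma adjusted p of Fasn was then 0.0555 to 0.104 in KO_PBS against CTR_PBS and 0.0794 to 0.154 in KO_REG3B-Fc against KO_PBS. The lipogenic regulator gene Srebf1 did not pass in any of the 3 comparisons after median scaling, at log2 changes of -0.17, 0.06 and, for KO_REG3B-Fc against CTR_PBS, -0.11. In KO_PBS against CTR_PBS Srebf1 passed as lower as deposited (-0.67, limma adjusted p = 1.14e-05) and after rescaling (-0.49, limma adjusted p = 0.000179), and the authors' deposited table gave -0.22 with an adjusted p of 0.0103. Beta cell markers moved with Acly, Acaca, Elovl6 and Fasn, and opposite to Scd1 and, after median scaling, Scd2. These markers took 61.0 and 60.7% of summed FPKM in KO_REG3B-Fc, 40.9 and 40.2% in KO_PBS, and 60.4 and 61.3% in CTR_PBS. After median scaling 7 of 9 beta cell markers fell in KO_PBS against CTR_PBS, with a median of -0.40, and 6 of 9 rose in KO_REG3B-Fc against KO_PBS, with a median of 0.29. None of the 9 was at 0, and their part in the values of Acly, Acaca, Elovl6 and Fasn was not tested.

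The stearoyl-CoA desaturase genes Scd1 and Scd2, which place a double bond in saturated chains, are neighbouring paralogs whose reads may be split uncertainly between them. Scd1 (Entrez 20249, chromosome 19, 44394450 to 44407709) measured 1.14 and 1.08 FPKM in KO_REG3B-Fc, 4.45 and 4.30 FPKM in KO_PBS, against 1.58 and 1.59 FPKM in CTR_PBS. Both KO_PBS libraries were highest by a wide margin, and the 3 groups did not overlap. Scd1 changed by 1.46 (SE 0.06, limma adjusted p = 4.17e-07) in KO_PBS against CTR_PBS, by -1.80 (SE 0.06, limma adjusted p = 1.19e-07) in KO_REG3B-Fc against KO_PBS, and by -0.33 (SE 0.06, limma adjusted p = 0.00868) in KO_REG3B-Fc against CTR_PBS. As deposited the first 2 were 1.06 and -1.35, and the third was lost whichever library was left out (limma adjusted p of 0.0511 to 0.0673). Scd2 (Entrez 20250, chromosome 19, 44293676 to 44306864) measured 17.9 and 16.8 FPKM in KO_REG3B-Fc, 15.5 and 14.2 FPKM in KO_PBS, against 19.6 and 18.8 FPKM in CTR_PBS, lowest in KO_PBS as deposited. After median scaling Scd2 changed by 0.15 (SE 0.05, limma adjusted p = 0.0357) in KO_PBS against CTR_PBS and by -0.39 (SE 0.05, limma adjusted p = 0.000328) in KO_REG3B-Fc against KO_PBS, but as deposited both turned round, to -0.35 and 0.21. In KO_REG3B-Fc against CTR_PBS Scd2 changed by -0.24 (SE 0.05, limma adjusted p = 0.0180), a call that was lost as deposited (-0.14, limma adjusted p = 0.113) and whichever library was left out (0.0579 to 0.127). The call of Scd2 in KO_PBS against CTR_PBS was lost without CTR_PBS replicate 1 (0.09996), CTR_PBS replicate 2 (0.163) or KO_PBS replicate 1 (0.135). In the 2 comparisons that use the KO_PBS libraries, marker genes of immune, stellate and acinar cells moved with Scd1. Those of other islet hormone cells did not, as 6 of 7 rose after median scaling in KO_PBS against CTR_PBS and 6 of 7 in KO_REG3B-Fc against KO_PBS. Duct markers were mixed, with 3 higher and 1 lower, then 1 higher and 3 lower, in these comparisons. So were endothelial markers, with 4 higher and 1 lower, then 1 higher and 3 lower. In KO_PBS against CTR_PBS all 10 tested immune markers, 5 of 6 stellate markers and all 18 tested acinar markers rose after median scaling, and in KO_REG3B-Fc against KO_PBS the same numbers fell. As deposited 9 of the 10 immune markers rose in KO_PBS against CTR_PBS, and 8 fell and 1 rose in KO_REG3B-Fc against KO_PBS. After median scaling all 3 tested proliferation markers rose in the first of these and fell in the second. In KO_REG3B-Fc against CTR_PBS, where Scd1 fell, 4 of 6 stellate and 2 of 10 immune markers rose after median scaling and none fell. There all 18 tested acinar markers fell, and 2 of 3 proliferation markers rose. Immune markers took 0.0136 and 0.0132% of summed FPKM in KO_REG3B-Fc, 0.0308 and 0.0310% in KO_PBS, and 0.0115 and 0.0108% in CTR_PBS. Of the 12 immune markers in the table, Cd3e, Cd3g and Ms4a1 were at 0 in at least 1 of the 6 libraries, and no stellate marker was. Their part in the Scd1 values was not tested. Of the 6 adipocyte markers in the PBS table, Lep, Cidec and Car3 were at or below 0.05 FPKM in all 6 libraries and 3 could be tested. Of these 1 rose, by 0.99, and 1 fell in KO_PBS against CTR_PBS, and 2 rose and 1 fell in KO_REG3B-Fc against KO_PBS. The one that rose in KO_PBS was Fabp4, at 35.3 and 31.6 FPKM in KO_REG3B-Fc, 39.2 and 35.5 FPKM in KO_PBS, against 25.7 and 27.6 FPKM in CTR_PBS.

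Of the mevalonate genes, Hmgcs1 encodes HMG-CoA synthase (Entrez 208715, chromosome 13, 119690351 to 119708260), the enzyme before the reductase. Hmgcs1 measured 11.6 and 11.6 FPKM in KO_REG3B-Fc, 9.81 and 10.0 FPKM in KO_PBS, against 12.5 and 11.6 FPKM in CTR_PBS, where the KO_REG3B-Fc values lie within the range of CTR_PBS. After median scaling it changed by 0.23 (SE 0.05, limma adjusted p = 0.00581) in KO_PBS against CTR_PBS and by -0.37 (SE 0.05, limma adjusted p = 0.000482) in KO_REG3B-Fc against KO_PBS, and as deposited by -0.25 and 0.21, the opposite way. The first call was lost without CTR_PBS replicate 2 (limma adjusted p = 0.0520). Mvd, the mevalonate diphosphate decarboxylase (Entrez 192156, chromosome 8, 122433596 to 122443422), measured 3.04 and 2.85 FPKM in KO_REG3B-Fc, 2.98 and 3.09 FPKM in KO_PBS, against 3.37 and 3.47 FPKM in CTR_PBS. Its groups KO_REG3B-Fc and KO_PBS overlapped as deposited. Mvd changed by 0.28 (SE 0.06, limma adjusted p = 0.00499) in KO_PBS against CTR_PBS, -0.51 (SE 0.06, limma adjusted p = 0.000176) in KO_REG3B-Fc against KO_PBS and -0.24 (SE 0.06, limma adjusted p = 0.0375) in KO_REG3B-Fc against CTR_PBS. As deposited Mvd passed in none of them (-0.13, -0.03 and -0.16), and the third call was lost whichever library was left out (0.118 to 0.194). Idi1, which interconverts the isoprenoid units (Entrez 319554, chromosome 13, 8885606 to 8892396), measured 6.39 and 6.07 FPKM in KO_REG3B-Fc, 5.99 and 6.06 FPKM in KO_PBS, against 6.66 and 6.41 FPKM in CTR_PBS, lowest in KO_PBS. Idi1 changed by 0.36 (SE 0.05, limma adjusted p = 0.000524) in KO_PBS against CTR_PBS and by -0.51 (SE 0.05, limma adjusted p = 7.43e-05) in KO_REG3B-Fc against KO_PBS, against -0.10 and 0.04 as deposited, which did not pass. The kinase genes Mvk and Pmvk passed in none of the 3 comparisons after median scaling.

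Between isoprenoids and squalene, Fdps, which makes farnesyl diphosphate (Entrez 110196, chromosome 3, 89093588 to 89101967), measured 27.1 and 27.9 FPKM in KO_REG3B-Fc, 20.9 and 21.4 FPKM in KO_PBS, against 30.9 and 31.4 FPKM in CTR_PBS. KO_PBS was lowest, CTR_PBS highest and no group overlapped another, where 84.5% of all genes were lower in KO_PBS than in CTR_PBS without overlap. Fdps changed by -0.27 (SE 0.05, limma adjusted p = 0.00760) in KO_REG3B-Fc against CTR_PBS, a call lost without CTR_PBS replicate 2 (0.0747) or KO_REG3B-Fc replicate 1 (0.0594). Against KO_PBS it changed by -0.24 (SE 0.05, limma adjusted p = 0.00287) after median scaling and by 0.36 as deposited. Fdft1, the squalene synthase, changed in KO_REG3B-Fc against KO_PBS by -0.21 (SE 0.05, limma adjusted p = 0.0113) and as deposited by 0.38. The Fdft1 call was lost without KO_PBS replicate 1 (0.0504) or KO_REG3B-Fc replicate 2 (0.0659).

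Among the enzymes from squalene to cholesterol, Sqle, the squalene epoxidase (Entrez 20775, chromosome 15, 59315092 to 59331193), measured 33.5 and 33.0 FPKM in KO_REG3B-Fc, 20.8 and 20.8 FPKM in KO_PBS, against 34.1 and 34.0 FPKM in CTR_PBS. Both KO_PBS libraries were lowest, where 84.5% of all genes were lower in KO_PBS than in CTR_PBS without overlap. Sqle changed by -0.18 (SE 0.04, limma adjusted p = 0.00618) in KO_PBS against CTR_PBS after median scaling and by -0.69 as deposited. Msmo1, a C4-demethylating oxidase (Entrez 66234, chromosome 8, 64718123 to 64733578), measured 34.2 and 34.6 FPKM in KO_REG3B-Fc, 25.0 and 23.7 FPKM in KO_PBS, against 39.4 and 41.0 FPKM in CTR_PBS. The KO_REG3B-Fc values lay between the other groups, with no overlap. Msmo1 changed by -0.32 (SE 0.04, limma adjusted p = 0.00357) in KO_REG3B-Fc against CTR_PBS, and it passed whichever library was left out. In KO_PBS against CTR_PBS it changed by -0.19 (SE 0.04, limma adjusted p = 0.00932), a call lost without CTR_PBS replicate 2 (0.0790) or KO_PBS replicate 2 (0.0508). In KO_REG3B-Fc against KO_PBS it changed by -0.13 (SE 0.04, limma adjusted p = 0.0477) but by 0.48 as deposited. That call passed without KO_PBS replicate 2 alone, and the limma adjusted p was 0.0497 to 0.216 with 1 library left out. Sc5d, the lathosterol oxidase (Entrez 235293, chromosome 9, 42251592 to 42264300), measured 10.9 and 10.4 FPKM in KO_REG3B-Fc, 8.41 and 8.35 FPKM in KO_PBS, against 10.4 and 10.1 FPKM in CTR_PBS, lowest in KO_PBS. It changed by 0.22 (SE 0.04, limma adjusted p = 0.00426) in KO_PBS against CTR_PBS and by -0.26 (SE 0.04, limma adjusted p = 0.00189) in KO_REG3B-Fc against KO_PBS, and the opposite way as deposited (-0.26 and 0.31).

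Tm7sf2, a sterol C14 reductase (Entrez 73166, chromosome 19, 6062821 to 6067850), measured 5.10 and 4.68 FPKM in KO_REG3B-Fc, 2.96 and 2.64 FPKM in KO_PBS, against 4.94 and 4.64 FPKM in CTR_PBS, with both KO_PBS libraries lowest. As deposited 84.5% of all genes were lower in KO_PBS than in CTR_PBS without overlap. Tm7sf2 changed by -0.20 (SE 0.06, limma adjusted p = 0.0313) in KO_PBS against CTR_PBS, a call kept only without KO_PBS replicate 1. Without CTR_PBS replicate 1, CTR_PBS replicate 2 and KO_PBS replicate 2 the limma adjusted p of Tm7sf2 was 0.149, 0.0703 and 0.160. Cyp51, the lanosterol demethylase, changed in KO_REG3B-Fc against KO_PBS by -0.18 (SE 0.06, limma adjusted p = 0.0302) and as deposited by 0.37. The Cyp51 call was lost without either KO_PBS library (0.0789 and 0.0678) or without KO_REG3B-Fc replicate 1 (0.171). Lss, Nsdhl, Hsd17b7, Ebp and Dhcr7 passed in none of the 3 comparisons after median scaling, nor did the sterol carrier gene Stard4.

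Of the regulators, Insig1, whose product retains SREBP when sterols are plentiful (Entrez 231070, chromosome 5, 28071412 to 28078662), measured 48.6 and 51.1 FPKM in KO_REG3B-Fc, 52.6 and 50.5 FPKM in KO_PBS, against 56.8 and 59.1 FPKM in CTR_PBS. Both CTR_PBS libraries were highest and the other 2 groups overlapped. After median scaling Insig1 changed by 0.35 (SE 0.05, limma adjusted p = 0.000539) in KO_PBS against CTR_PBS and by -0.67 (SE 0.05, limma adjusted p = 1.38e-05) in KO_REG3B-Fc against KO_PBS, whereas as deposited these were -0.17 and -0.05, and only the first passed, as lower. In KO_REG3B-Fc against CTR_PBS Insig1 changed by -0.32 (SE 0.05, limma adjusted p = 0.00531), a call lost without CTR_PBS replicate 2 (0.0582). Srebf2, the gene of the sterol regulator SREBP2 (Entrez 20788, chromosome 15, 82147269 to 82205379), measured 20.0 and 18.6 FPKM in KO_REG3B-Fc, 12.7 and 12.9 FPKM in KO_PBS, against 21.0 and 20.2 FPKM in CTR_PBS. Both KO_PBS libraries were lowest, where 84.5% of all genes were lower in KO_PBS than in CTR_PBS without overlap. Srebf2 changed by -0.15 (SE 0.05, limma adjusted p = 0.0273) in KO_PBS against CTR_PBS and by -0.19 (SE 0.05, limma adjusted p = 0.0375) in KO_REG3B-Fc against CTR_PBS. The first call was lost without CTR_PBS replicate 1 (0.138), CTR_PBS replicate 2 (0.0773) or KO_PBS replicate 1 (0.123). The second was lost whichever library was left out (0.0792 to 0.208) and as deposited (-0.09, limma adjusted p = 0.258).

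In db islets, 8 sterol genes and the acetyl-CoA supply genes Acly and Acss2 were higher in db_REG3B than in db_GFP, while Scd1 was lower. After median scaling 8 of the 20 sterol genes rose and none fell, and of the 9 fatty acid genes 3 rose and 1 fell. Over all 12507 genes tested 20.7% passed as higher and 25.6% as lower. As deposited 9 of the 29 rose and 4 fell (12.2 and 30.8% of all genes), the 3 further lower genes being Hmgcs1, Nsdhl and Scd2, and after rescaling 15 rose and 1 fell (38.5 and 19.9%). On all 3 scales Sqle, Lss, Msmo1, Fdps, Sc5d, Tm7sf2, Insig1, Acly and Acss2 were higher (12.2% of all genes) and Scd1 was lower (19.9%). Medians were 0.09 for the sterol genes, 0.07 for the fatty acid genes and 0.0070 for all genes. As deposited 12 of the 29 were higher and 8 lower with no overlap between groups, where 25.2 and 46.2% of all genes were. With 1 library left out, 8 or 9 of the 29 rose and 1 fell.

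**Figure D4:**
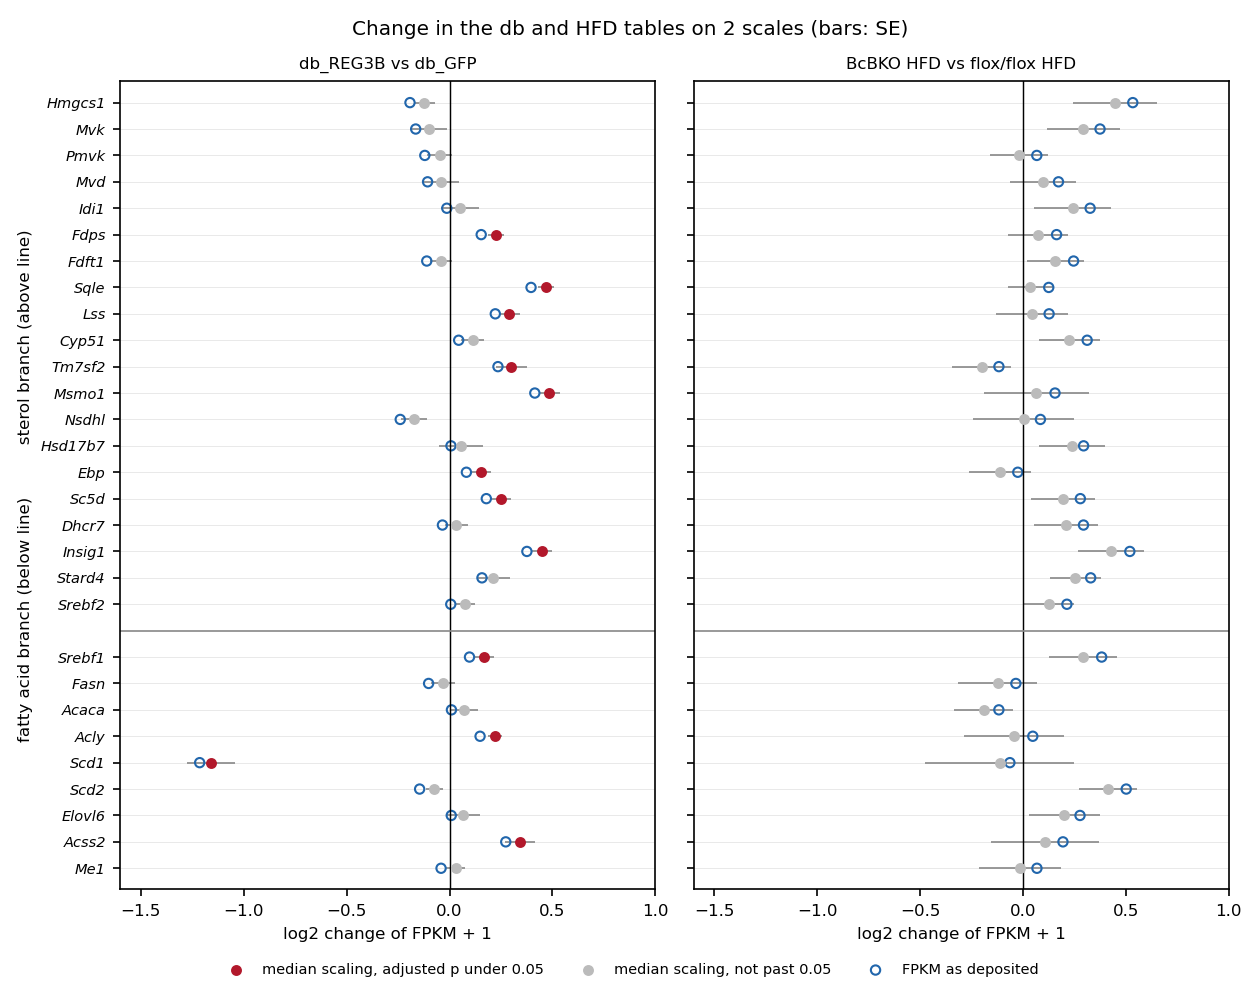
Log2 change of FPKM + 1 (x axis) for the 29 genes (rows) in db_REG3B against db_GFP and in BcBKO HFD against flox/flox HFD. Filled points are median-scaled changes with their SE, red where the limma adjusted p was under 0.05, and open circles are changes of FPKM as deposited. All 12 red points are in the db panel, with Scd1 the only one below 0.

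The sterol genes that rose in db_REG3B after median scaling were the enzyme genes Fdps, Sqle, Lss, Msmo1, Tm7sf2, Sc5d and Ebp and the regulator gene Insig1. Other genes of enzymes after mevalonate did not pass, as given below. Sqle measured 72.7 and 73.2 FPKM in db_REG3B and 55.1 and 55.3 FPKM in db_GFP, a log2 change of 0.47 (SE 0.04, limma adjusted p = 5.02e-05). Msmo1 measured 41.3 and 39.5 FPKM in db_REG3B and 30.2 and 30.0 FPKM in db_GFP, a change of 0.49 (SE 0.05, limma adjusted p = 0.000154). For both genes each db_REG3B library was above each db_GFP library. Insig1 measured 42.0 and 40.9 FPKM in db_REG3B and 32.4 and 31.0 FPKM in db_GFP, a change of 0.45 (SE 0.05, limma adjusted p = 0.000210). Lss, the lanosterol synthase, measured 17.0 and 17.6 FPKM in db_REG3B and 14.9 and 14.5 FPKM in db_GFP (log2 change 0.29, SE 0.05, limma adjusted p = 0.00242). Again the groups did not overlap in either gene. Fdps measured 56.8 and 59.6 FPKM in db_REG3B and 53.0 and 51.4 FPKM in db_GFP (log2 change 0.23, SE 0.04, limma adjusted p = 0.00277). Sc5d measured 18.6 and 19.8 FPKM in db_REG3B and 16.8 and 16.8 FPKM in db_GFP (log2 change 0.25, SE 0.05, limma adjusted p = 0.00480). Both were higher in each db_REG3B library.

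Tm7sf2 measured 8.69 and 7.80 FPKM in db_REG3B and 6.76 and 6.93 FPKM in db_GFP (log2 change 0.30, SE 0.08, limma adjusted p = 0.0143). Its call was lost without db_GFP replicate 1 (limma adjusted p = 0.0629) or db_REG3B replicate 1 (0.0677). Ebp, a sterol isomerase, rose by 0.15 (SE 0.05, limma adjusted p = 0.0309), but did not pass as deposited (0.08, limma adjusted p = 0.257) or when any 1 library was left out (0.0606 to 0.228). The 5 mevalonate genes from Hmgcs1 to Idi1 did not pass after median scaling, with log2 changes between -0.12 for Hmgcs1 and 0.05 for Idi1. Hmgcs1 measured 15.8 and 16.0 FPKM in db_REG3B and 18.6 and 18.0 FPKM in db_GFP, lower in both db_REG3B libraries, and as deposited it passed as lower (-0.19, limma adjusted p = 0.0229). Fdft1, Cyp51, Nsdhl, Hsd17b7, Dhcr7, Stard4 and Srebf2 did not pass after median scaling either, while Nsdhl passed as lower as deposited (-0.24, limma adjusted p = 0.0252).

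In the fatty acid branch, Acly measured 782 and 829 FPKM in db_REG3B and 735 and 718 FPKM in db_GFP, a log2 change of 0.22 (SE 0.03, limma adjusted p = 0.00130), without overlap. Acss2 measured 13.8 and 16.4 FPKM in db_REG3B and 12.1 and 12.4 FPKM in db_GFP (log2 change 0.34, SE 0.07, limma adjusted p = 0.00611), also without overlap. Srebf1 rose by 0.17 (SE 0.05, limma adjusted p = 0.0230), but not as deposited (0.10, limma adjusted p = 0.208), and its call was lost without db_GFP replicate 1 (0.119), db_GFP replicate 2 (0.142) or db_REG3B replicate 2 (0.0853). Scd1 measured 1.75 and 1.22 FPKM in db_REG3B and 4.80 and 4.67 FPKM in db_GFP. Both db_REG3B libraries lay far below both db_GFP libraries. The Scd1 change was -1.16 (SE 0.12, limma adjusted p = 0.000135). Scd2 was at 43.7 and 45.0 FPKM in db_REG3B and 49.8 and 48.5 FPKM in db_GFP, and did not pass after median scaling (log2 change -0.07, SE 0.04, limma adjusted p = 0.178). Fasn, Acaca, Elovl6 and Me1 did not pass after median scaling, with log2 changes between -0.03 for Fasn and 0.07 for Acaca. Markers of stellate cells took 0.0194 and 0.0199% of summed FPKM in db_REG3B and 0.141 and 0.138% in db_GFP, and those of immune cells 0.0296 and 0.0303% in db_REG3B and 0.0747 and 0.0749% in db_GFP. All 7 stellate markers and 7 of 8 tested immune markers fell, and 8 of 9 beta cell markers rose. Of the 10 immune markers in the table Ms4a1 was at 0 in 2 libraries, and no stellate marker was at 0. The part of these cells in the Scd1, sterol and Acly values was not tested. Adipocyte markers took 0.00268 and 0.00263% in db_REG3B and 0.00627 and 0.00601% in db_GFP, and of the 3 tested 1 rose and 2 fell, the lowest log2 change being -1.17. These were Pparg, which rose, and Fabp4 and Lpl, while Adipoq was at or below 0.06 FPKM in the 4 db libraries.

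**Figure D5:**
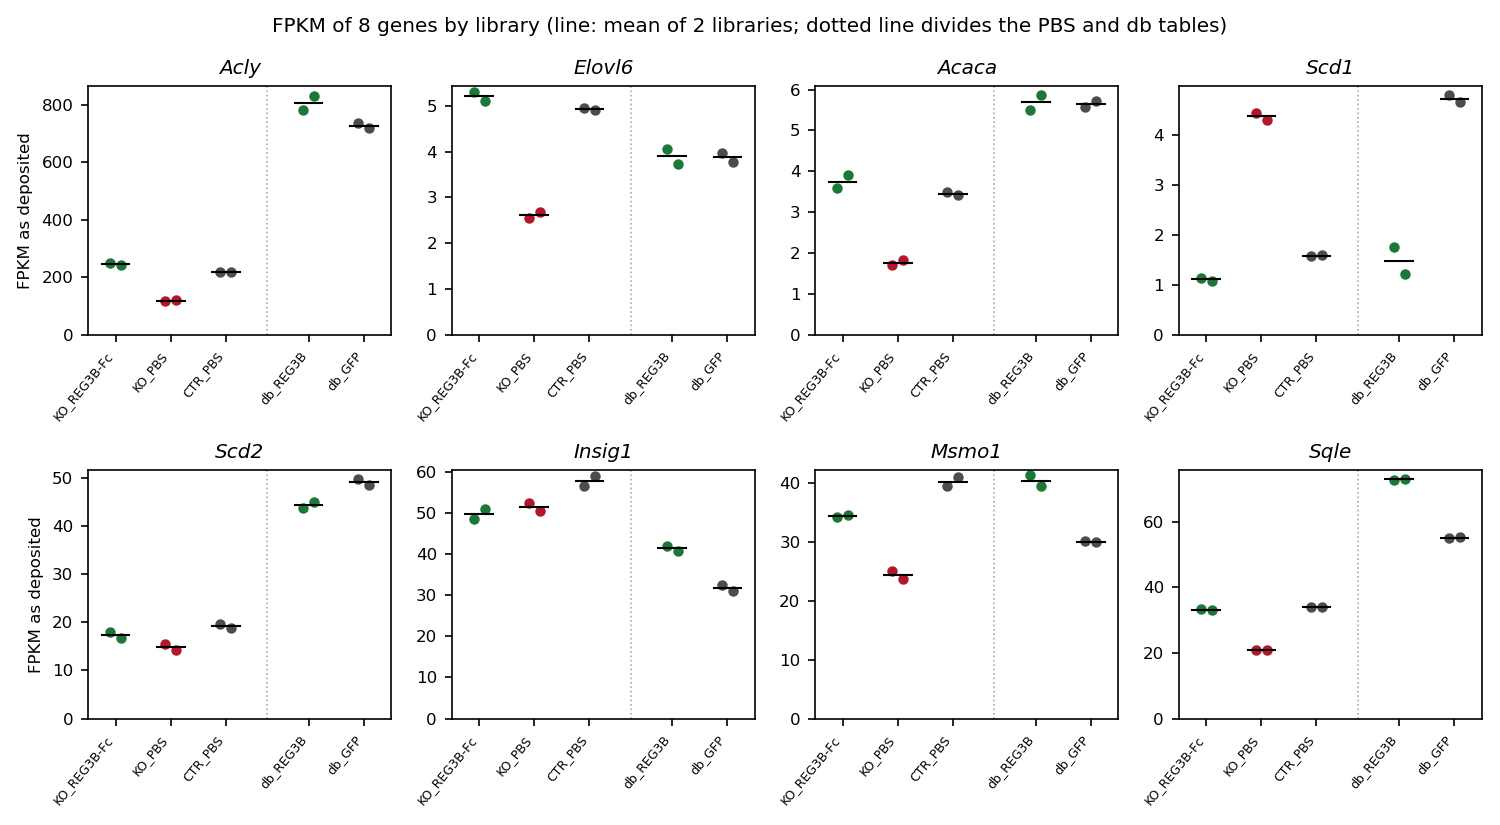
FPKM as deposited (y axis, from 0) of 8 genes in each library of the PBS and db tables, with a point per library and a line at the mean of each group of 2. Acly, Elovl6 and Acaca are lowest in KO_PBS, where Scd1 is highest, and in the db table Scd1 is lower in db_REG3B while Insig1, Msmo1 and Sqle are higher. Over all genes tested 84.5% were lower in KO_PBS than in CTR_PBS without overlap.

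On the high-fat diet no gene of either branch passed in BcBKO against flox/flox islets. Of all 11560 genes tested 0.00865% passed as higher and 0% as lower. An unadjusted p under 0.05 was reached by 2 of the 29 genes (6.90%), against 2.55% of all genes, and the authors' deposited table also called none of the 29 (0.109% of all genes higher, 0.0546% lower). The medians were 0.14 for the sterol genes, -0.01 for the fatty acid genes and -0.0010 for all genes. As deposited 13 of the 29 genes were higher in BcBKO without overlap and none lower, where 25.3 and 4.85% of all genes were. The genes with the smallest p were Scd2, Insig1, Hmgcs1 and Stard4. Scd2 measured 22.3 and 24.9 FPKM in BcBKO HFD and 15.3 and 17.5 FPKM in flox/flox HFD, a log2 change of 0.41 (SE 0.14, limma adjusted p = 1.000). Insig1 measured 108 and 81.5 FPKM in BcBKO HFD and 67.2 and 63.1 FPKM in flox/flox HFD (log2 change 0.43, SE 0.16, limma adjusted p = 1.000). Their groups did not overlap, yet the BcBKO libraries lay far apart for Insig1. Hmgcs1 measured 35.6 and 24.2 FPKM in BcBKO HFD and 18.8 and 21.2 FPKM in flox/flox HFD (log2 change 0.45, SE 0.20, limma adjusted p = 1.000). Stard4, which carries cholesterol between membranes, measured 4.61 and 4.58 FPKM in BcBKO HFD and 3.35 and 3.56 FPKM in flox/flox HFD (log2 change 0.26, SE 0.12, limma adjusted p = 1.000). The unadjusted p-values from limma were 0.0322 for Scd2, 0.0423 for Insig1, 0.0803 for Hmgcs1 and 0.0944 for Stard4. Acly and Scd1, which moved in the other tables, differed by -0.04 and -0.11, with SEs of 0.24 and 0.36. These SEs are several times those of the PBS table. In replicates 1 and 2 Acly measured 198 and 283 FPKM in BcBKO HFD and 206 and 254 FPKM in flox/flox HFD. Scd1 measured 0.67 and 1.54 FPKM in BcBKO HFD and 0.62 and 1.86 FPKM in flox/flox HFD. Both genes were thus higher in replicate 2 of each group, a difference that the fit without a replicate block counts as spread. With the replicate block none of the 29 genes passed either.

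In the WT table, which has no comparison, the 29 genes varied between libraries of the same label. Scd1 measured 2.84, 5.06, 1.82, 0.32 and 5.64 FPKM in replicates 1 to 5, and the acinar share of summed FPKM was 36.2, 47.4, 49.6, 6.48 and 31.0%. The lowest Scd1 value lay in replicate 4, which also had the smallest acinar share. Replicate 3 had the largest acinar share, yet its Scd1 value was below those of replicates 1, 2 and 5. Scd1 was highest in replicate 5, at an acinar share of 31.0%. A link between Scd1 and the acinar share was not tested. Msmo1 was highest in replicate 4, at 25.2, 17.7, 15.7, 61.1 and 29.3 FPKM over the 5 libraries. Elovl6 measured 2.62, 1.95, 1.81, 6.12 and 3.93 FPKM and was also highest in replicate 4. Acly measured 243, 142, 138, 175 and 167 FPKM, highest in replicate 1. Summed over the sterol branch, the 5 libraries had 215, 157.7, 148, 248 and 195 FPKM.

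The other genes of these pathways were read from a list of 49, of which 46 could be tested. After median scaling none of these passed in BcBKO HFD against flox/flox HFD, 16 rose and 10 fell in KO_PBS against CTR_PBS, 6 rose and 13 fell in KO_REG3B-Fc against KO_PBS, 3 rose and 3 fell in KO_REG3B-Fc against CTR_PBS, and 9 rose and 14 fell in db_REG3B against db_GFP. The shares of all genes tested that passed as higher and lower were 24.6 and 20.0%, 20.2 and 24.7%, 5.47 and 5.30%, and 20.7 and 25.6% in these last 4 comparisons. The counts depend on the scale, since as deposited 1 of the 46 rose and 39 fell in KO_PBS against CTR_PBS (8.66 and 81.5% of all genes), and 41 rose and none fell in KO_REG3B-Fc against KO_PBS (86.2 and 6.97%). After rescaling 1 rose and 31 fell in KO_PBS against CTR_PBS, and 32 rose and 3 fell in KO_REG3B-Fc against KO_PBS. As deposited 8 rose and 1 fell in KO_REG3B-Fc against CTR_PBS, and 5 rose and 16 fell in db_REG3B against db_GFP. Apoe, an apolipoprotein of sterol efflux, measured 110.5 and 115 FPKM in KO_REG3B-Fc, 102 and 97.7 FPKM in KO_PBS, against 91.6 and 88.4 FPKM in CTR_PBS. After median scaling it changed by 0.68 (SE 0.04, limma adjusted p = 5.83e-06) in KO_PBS against CTR_PBS and by 0.22 (SE 0.04, limma adjusted p = 0.0148) in KO_REG3B-Fc against CTR_PBS. In KO_REG3B-Fc against KO_PBS Apoe changed by -0.46 (SE 0.04, limma adjusted p = 5.89e-05), while as deposited it rose (0.17, limma adjusted p = 0.00403). In the db table Apoe was at 853 and 789 FPKM in db_REG3B and 1379 and 1391 FPKM in db_GFP (log2 change -0.68, SE 0.05, limma adjusted p = 2.96e-05). Of 7 genes of sterol efflux and its LXR regulators, none rose and 5 fell there after median scaling, where 25.6% of all genes fell, and 3 fell after rescaling without insulin and acinar genes (19.9%). Apoe is also a macrophage gene, and its cells of origin were not tested.

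Hadh, a beta-oxidation enzyme with a known role in beta cells, measured 309.6 and 318 FPKM in KO_REG3B-Fc, 165 and 154 FPKM in KO_PBS, against 309.7 and 303 FPKM in CTR_PBS, and changed by -0.41 (SE 0.04, limma adjusted p = 8.27e-05) in KO_PBS against CTR_PBS. Hadh had the lowest change of the 11 tested genes of fatty acid oxidation in that comparison. Of these 6 rose and 3 fell after median scaling, with a median of 0.16, while as deposited all 11 fell. In db islets Hadh measured 329 and 336 FPKM in db_REG3B and 244 and 243 FPKM in db_GFP (log2 change 0.52, SE 0.03, limma adjusted p = 1.17e-05). Of the genes for long-chain unsaturated fatty acids, the elongase gene Elovl5 measured 74.4 and 74.8 FPKM in db_REG3B and 47.4 and 46.3 FPKM in db_GFP (log2 change 0.73, SE 0.04, limma adjusted p = 5.4e-06). The desaturase gene Fads2 measured 5.40 and 5.96 FPKM in db_REG3B and 12.7 and 11.4 FPKM in db_GFP (log2 change -0.90, SE 0.07, limma adjusted p = 4.18e-05). In KO_REG3B-Fc against KO_PBS Fads2 changed by -0.50 (SE 0.06, limma adjusted p = 0.000172), the elongase gene Elovl1 by -0.51 (SE 0.05, limma adjusted p = 8.49e-05) and the LXR alpha gene Nr1h3 by -0.47 (SE 0.07, limma adjusted p = 0.00122). As deposited these 3 did not pass (0.02, 0.07 and 0.04). In KO_PBS against CTR_PBS Nr1h3 changed by 0.43 (SE 0.07, limma adjusted p = 0.00203) and the phosphatidate phosphatase gene Lpin1 by 0.42 (SE 0.06, limma adjusted p = 0.000807), but as deposited by -0.0038 and -0.04, which did not pass. In KO_REG3B-Fc against CTR_PBS the efflux pump gene Abca1 changed by 0.34 (SE 0.04, limma adjusted p = 0.00213), Lpin1 by 0.32 (SE 0.06, limma adjusted p = 0.0149) and Elovl1 by -0.27 (SE 0.05, limma adjusted p = 0.0120).

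The authors' deposited table, which holds their own fold changes, called 5 sterol and 6 fatty acid genes in KO_PBS against CTR_PBS at an adjusted p under 0.05. Of the sterol genes 2 were higher and 3 lower, and of the fatty acid genes 1 was higher and 5 lower, where 14.7% of all genes were called higher and 11.2% lower. For KO_REG3B-Fc against KO_PBS the authors' deposited table called 4 sterol genes lower, 4 fatty acid genes higher and 2 lower (10.2% of all genes higher, 13.9% lower). For db_REG3B against db_GFP the authors' deposited table called 6 sterol genes higher, 3 fatty acid genes higher and 1 lower (12.3 and 15.1%). For Scd1 the log2 fold changes of the authors' deposited table were 1.95 in KO_PBS against CTR_PBS, -2.59 in KO_REG3B-Fc against KO_PBS and -1.57 in db_REG3B against db_GFP, further from 0 than on the log2(FPKM + 1) scale. For Acly the authors' deposited table gave -0.40, 0.45 and 0.25 in the same comparisons, and for Insig1 0.32, -0.66 and 0.48.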

How the data were processed

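RNA of mouse islets was sequenced on BGISEQ-500 as paired ends, per the labels' protocols. The authors deposited FPKM per gene in 4 tables, each library scaled on its own, and in the HFD table also TPM, which was not used. The genome build was GRCm38.p6 per the submitters' processing notes, and the aligner is not given in the sources used here. The authors' deposited tables also hold their own log2 fold changes and p-values, made with DESeq2 per the file headers for the PBS and db tables. The 25 samples of the labels fall into 10 groups. The chow groups of 3 samples each are not analysed here. No value column lacked a sample (0 columns). Depth is unknown, so no counting interval is given.

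FPKM was median-scaled within a table, transformed as log2(FPKM + 1) and, for genes of at least 1 FPKM in at least 2 libraries, fitted over the groups of each table together by limma 3.58.1 under R 4.3.3 (trended empirical Bayes, Benjamini-Hochberg adjustment over all genes tested, threshold 0.05, two-sided). Residual degrees of freedom were 2 for HFD, 3 for PBS and 2 for db. Tables were never tested against each other. The fit was tested on simulated data. Python 3.11.15, pandas 2.3.3 and matplotlib 3.10.9 were used for the rest. For each comparison the passing genes among the 29 were ranked by the size of their change, and up to 10 were named with full values. Where fewer than 4 passed, those with the smallest p were added up to 4. Of the other pathway genes, up to 4 were named per comparison. Further genes were named after their values were seen. The 29 genes and the other lists were chosen with earlier results of these data known. Alternatives were FPKM as deposited, rescaling without insulin and acinar genes, a pseudocount of 0.1, no filter on low values, a replicate block, no trend, only the 2 groups compared, and leaving out each library.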

Additional observations from a re-analysis of the deposited data

Results flagged for a closer look

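Of the 29 genes in the 5 WT libraries, 1 had a library far from the others. Srebf2 measured 15.67 FPKM in WT replicate 1, the highest of the 5, and its gap to the next library was large against the whole range by Dixon's test. Chance flags about 1 in 20 groups, so 1 of 29 is no more than chance gives. The groups of 2 libraries were too small for this test.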

How the results depend on the processing

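The scale decided most changes of direction. In KO_PBS against CTR_PBS, FPKM as deposited reversed Hmgcs1 (-0.25), Mvd (-0.13), Idi1 (-0.10), Sc5d (-0.26), Insig1 (-0.17) and Scd2 (-0.35), and rescaling without insulin and acinar genes reversed Hmgcs1 (-0.082), Sc5d (-0.089) and Scd2 (-0.18). In KO_REG3B-Fc against KO_PBS, FPKM as deposited reversed Hmgcs1 (0.21), Idi1 (0.041), Fdps (0.36), Fdft1 (0.38), Cyp51 (0.37), Msmo1 (0.48), Sc5d (0.31) and Scd2 (0.21), and rescaling reversed Fdps (0.10), Fdft1 (0.12), Cyp51 (0.13), Msmo1 (0.22) and Sc5d (0.064). As deposited and rescaled, the genes called over the whole table numbered 10624 and 9551 in KO_PBS against CTR_PBS and 10979 and 9663 in KO_REG3B-Fc against KO_PBS. Of the 29 genes, 1 and 1 were then higher and 26 and 22 lower in KO_PBS against CTR_PBS, and 24 and 15 higher and 1 and 4 lower in KO_REG3B-Fc against KO_PBS. In KO_REG3B-Fc against CTR_PBS 2315 genes were called as deposited, with 2 of the 29 higher and 4 lower, and 828 without the filter. In db_REG3B against db_GFP 4 of the 29 were lower as deposited and 2 without trend. With only the 2 groups compared, 3 of the 29 were higher in KO_REG3B-Fc against KO_PBS. In BcBKO HFD against flox/flox HFD all genes called numbered 0 without the filter and 4 with the replicate block. A pseudocount of 0.1 ended no call of the 29 genes. Calls ended after rescaling for Mvd, Idi1 and Insig1 in KO_PBS against CTR_PBS, for Hmgcs1 and Scd2 in KO_REG3B-Fc against KO_PBS, and for Srebf2 in KO_REG3B-Fc against CTR_PBS. Without the filter they ended for Tm7sf2 in KO_PBS against CTR_PBS and in db_REG3B against db_GFP, for Cyp51, Msmo1 and Acss2 in KO_REG3B-Fc against KO_PBS, and for Mvd and Srebf2 in KO_REG3B-Fc against CTR_PBS. Without trend they ended for Scd2 in KO_PBS against CTR_PBS, Msmo1 in KO_REG3B-Fc against KO_PBS, Srebf2 in KO_REG3B-Fc against CTR_PBS, and Ebp and Srebf1 in the db table. The fit of only the 2 groups ended Msmo1, Fasn and Acss2 in KO_REG3B-Fc against KO_PBS. The cause of these shifts was not tested.

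With 1 library left out, the genes called over the whole table numbered 0 to 1 in BcBKO HFD against flox/flox HFD, 3662 to 4496 in KO_PBS against CTR_PBS, 3986 to 4505 in KO_REG3B-Fc against KO_PBS, 463 to 597 in KO_REG3B-Fc against CTR_PBS and 3897 to 5238 in db_REG3B against db_GFP. Of the 29 genes, 5 to 7 were higher and 4 to 6 lower in KO_PBS against CTR_PBS, 3 to 4 higher and 9 to 10 lower in KO_REG3B-Fc against KO_PBS, 1 to 3 lower in KO_REG3B-Fc against CTR_PBS, and 8 to 9 higher in db_REG3B against db_GFP. A group left with 1 library was assumed to vary like the others. The labels do not pair equal replicate numbers, whose deviations correlated at 0.670 in the HFD table, -0.023 to 0.047 in the PBS table and -0.051 in the db table. With the replicate block 7 of the 29 genes were higher and 9 lower in KO_PBS against CTR_PBS, 4 and 10 in KO_REG3B-Fc against KO_PBS, 0 and 5 in KO_REG3B-Fc against CTR_PBS, and 11 and 1 in db_REG3B against db_GFP. The block ended the calls of Msmo1 and Acss2 in KO_REG3B-Fc against KO_PBS and of Mvd and Srebf2 in KO_REG3B-Fc against CTR_PBS. With 2 libraries a group and FPKM alone, small changes near the threshold rest on few residual degrees of freedom.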
